A study of Homo sapiens with 4 samples.

Results

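Amino acid transporters are membrane proteins that carry amino acids across the plasma membrane, and 10 of their genes were followed in MDA-MB-231 cells, a mesenchymal breast cancer line that lacks estrogen and progesterone receptors. The genes are SLC7A5, SLC3A2, SLC7A1, SLC7A2, SLC7A6, SLC1A3, SLC1A4, SLC1A5, SLC38A1 and SLC38A2, 10 of the 48162 genes in the deposited table, matched by gene symbol. They were chosen by function around SLC7A5, whose fall after MGH-CP1 in these same libraries was already known, so their differences between the conditions are described here without a p-value. MGH-CP1 is a small molecule that blocks the palmitoylation of the TEAD transcription factors, which act with YAP and TAZ. Cells grown in DMEM with serum received either MGH-CP1 or its vehicle for 24 h, and each condition had 2 RNA-seq libraries. The sample labels give the dose as 10 µM, and the methods of the study give 10 mM. The labels do not say whether the 2 libraries of a condition came from separate cultures, so the spread between them may be technical.

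SLC7A5 is the light chain of the exchanger for large neutral amino acids such as leucine, and it reaches the cell surface bound to SLC3A2, the CD98 heavy chain. The SLC1A5 and SLC38 carriers bring in glutamine and other small neutral amino acids, which SLC7A5 can then exchange for leucine. Leucine and arginine inside the cell activate the kinase complex mTORC1 on the lysosome, and a shortage of amino acids is sensed by the kinase EIF2AK4, which raises translation of the factor ATF4. ATF4 binds C/EBP-ATF response elements in many transporter and amino acid synthesis genes.

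The promoters of SLC7A5, the largest fall on log2(FPKM + 1), and of SLC38A2, the rise in the group, are shown to set their base composition side by side. Each is the 250 bases before the RefSeq start on the GRCh38.p14 build, read on the minus strand, with an E-box (CACGTG) in capitals. SLC7A5 lies at chr16:87869508-87869757 and SLC38A2 at chr12:46372774-46373023.
SLC7A5: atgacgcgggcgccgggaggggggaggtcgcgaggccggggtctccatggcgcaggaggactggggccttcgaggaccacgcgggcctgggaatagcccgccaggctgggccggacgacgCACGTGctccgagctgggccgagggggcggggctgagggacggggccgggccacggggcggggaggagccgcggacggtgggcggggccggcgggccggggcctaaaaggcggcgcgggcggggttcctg
SLC38A2: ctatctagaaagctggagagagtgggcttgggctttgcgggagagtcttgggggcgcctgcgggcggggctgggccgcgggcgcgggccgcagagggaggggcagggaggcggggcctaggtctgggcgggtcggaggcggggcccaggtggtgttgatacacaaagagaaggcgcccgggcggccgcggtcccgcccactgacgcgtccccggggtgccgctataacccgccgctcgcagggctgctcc

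Both stretches are rich in G and C, at 79.6% for SLC7A5 and 73.6% for SLC38A2. The E-box, the site of MYC and other basic helix-loop-helix factors, occurred once in the SLC7A5 stretch and was not found in that of SLC38A2. Of the other transporter genes with a window, it was found in SLC1A5 alone, at position -50 from a start. It was found in 7.26% of 35116 RefSeq promoter windows, each 250 bases before to 50 after a start. Counted by gene, the E-box was in 8.77% of 27305 genes with windows and in 2 of the 9 transporter genes with a window.

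The core of the C/EBP-ATF response element, written here as TGATGNAA and searched on both strands, was found in the windows of 6 of the 9 transporter genes with a window and in 4.46% of 27305 genes with windows. It is shown in capitals with the bases around it, read on the gene's own strand, since the transporters include genes known to respond to ATF4. Where the core lies on the other strand, its reverse complement is in capitals.
SLC1A4: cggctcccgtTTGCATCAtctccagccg
SLC1A3: aggaaatgacTGATGCAAagcagggtta
SLC3A2: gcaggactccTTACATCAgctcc
SLC38A1: cagacccgaaTGATGAAAagggatcagc
SLC7A1: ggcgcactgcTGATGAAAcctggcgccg
SLC1A5: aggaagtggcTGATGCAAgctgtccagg

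These lie, on GRCh38.p14, at chr2:64989382-64989409 (plus strand) for SLC1A4, chr5:36596358-36596385 (plus) for SLC1A3, and chr11:62881726-62881748 (plus) for SLC3A2. The others are at chr12:46266503-46266530 (minus) for SLC38A1, chr13:29595664-29595691 (minus) for SLC7A1 and chr19:46784894-46784921 (minus) for SLC1A5. The first base of the match stood at positions -7, -220, +38, -4, +8 and -97 from the start, in the order of the lines above. Where a gene has several RefSeq starts, each was given a window, so that 9 genes had 17 windows and each position is counted from the start of the window that holds it. The windows of SLC7A5, SLC38A2 and SLC7A6 held no match to these letters. Per window the core was found in 6 of the 17 windows of the transporters and in 3.62% of all 35116. The letters of the TEAD site, GGAATG, were in 14.0% of all windows and in 16.7% of all genes with windows. Among the transporters they were found in 2 of the 17 windows and in 2 of the 9 genes, SLC1A3 and SLC1A5. A match describes the letters and does not show binding.

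SLC7A5 (ENSG00000103257; hg19, chr16:87863629-87903094, minus strand) was the most abundant of the transporters under vehicle and had the largest fall of the 10 on log2(FPKM + 1). With a pseudocount of 0.1 and in limma voom on the recovered fragments, SLC7A2 fell more, by 1.28 and 1.34 against 1.17 and 1.18 for SLC7A5. It was at 183 and 189 FPKM (fragments on the gene scaled to its length and to the fragments on all genes) under vehicle, and only 1.85% of the genes tested had a higher mean level there. In the MGH-CP1 libraries it was at 75.5 and 90.3 FPKM. Both MGH-CP1 libraries lay below both vehicle control libraries, with means of 186 ± 4.08 FPKM (SD, n = 2) and 82.9 ± 10.5 FPKM (SD, n = 2). The log2 fold change, computed on log2(FPKM + 1), was -1.16 with a standard error of 0.08, which placed SLC7A5 as number 5 among the falls of the 12080 genes tested. That place holds for this scale, where low levels are compressed. In mean FPKM the less abundant AOX1 fell by 59.5%, against 55.3% for SLC7A5, with a smaller log2 fold change of -1.12. Between 6166 and 21821 fragments per library lay behind the values of SLC7A5. In RNA of whole cultures, a smaller share of cells with the transcript and less transcript per cell cannot be told apart.

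SLC3A2 (chr11:62623518-62656352, plus strand) fell less than its partner. It had 88.2 and 95.3 FPKM under vehicle and 63.2 and 70.1 FPKM under MGH-CP1, again without overlap. The log2 fold change was -0.46 (standard error 0.06). The level of SLC7A5 over that of SLC3A2, both in FPKM, was 2.07 and 1.98 under vehicle and 1.20 and 1.29 under MGH-CP1. The transcript of the light chain therefore stood above that of the heavy chain in all 4 libraries, by a smaller ratio under MGH-CP1.

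**Figure D1:**
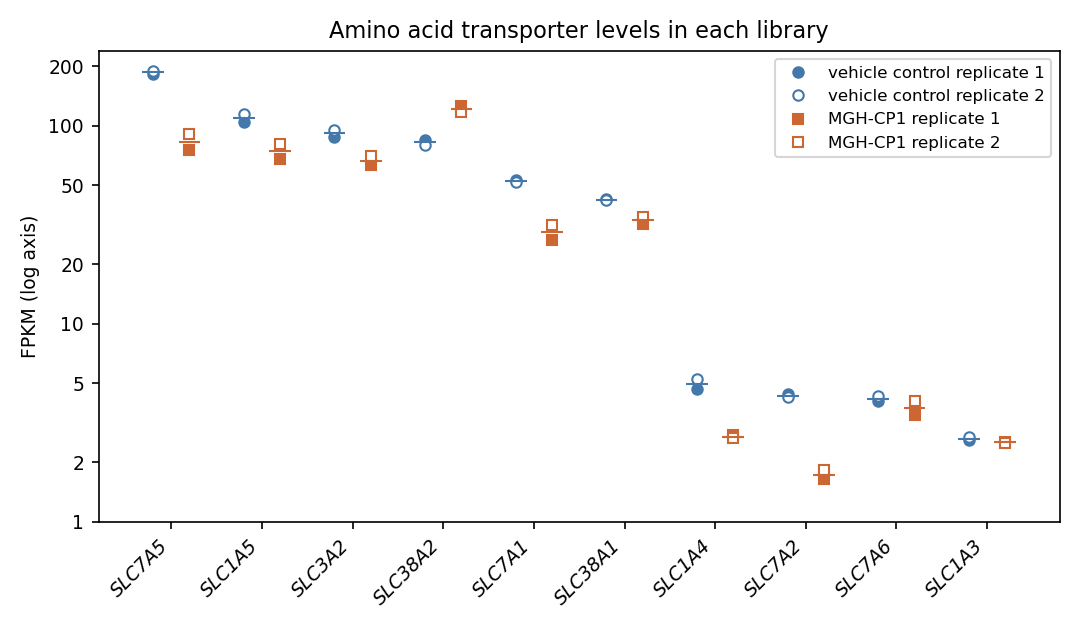
FPKM (log axis) of the 10 transporters in each library, ordered by the vehicle control mean, with circles for vehicle control, squares for MGH-CP1 and short lines for the mean of 2 libraries. SLC7A5 goes from 183 and 189 to 75.5 and 90.3 FPKM, and SLC38A2 is the gene whose squares lie above its circles, at 125 and 117 against 84.8 and 80.0 FPKM.

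The cationic amino acid carriers SLC7A1 and SLC7A2, which bring in arginine and lysine, both fell. SLC7A1 (chr13:30083547-30169825, minus strand) was at 53.1 and 52.2 FPKM under vehicle and at 26.5 and 31.5 FPKM under MGH-CP1. The conditions did not overlap, and the log2 fold change was -0.84 (standard error 0.08). SLC7A2 was a minor transcript, at 4.40 and 4.27 FPKM under vehicle and 1.64 and 1.82 FPKM under MGH-CP1. The ratio of its mean FPKM under vehicle to that under MGH-CP1 was 2.50, the largest of the 10, against 2.24 for SLC7A5. On log2(FPKM + 1), where low levels are compressed, its log2 fold change was -0.97 (standard error 0.10). It was -1.34 in limma voom on the recovered fragments, and 226 to 855 fragments per library lay behind it.

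SLC7A6, which also pairs with SLC3A2 and exchanges cationic for neutral amino acids, overlapped between the conditions. It had 4.05 and 4.31 FPKM under vehicle and 3.48 and 4.06 FPKM under MGH-CP1, and the log2 fold change of -0.12 had a standard error of 0.10. SLC7A6 shares 17317 bases of its region with SLC7A6OS on the opposite strand. Whether the counting used the strand is not given in the sources used here, and SLC7A6OS itself had 140 to 245 fragments per library.

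In the SLC1 family the glutamine exchanger SLC1A5 was abundant and its close relative SLC1A4, which exchanges alanine, serine and cysteine, was not. SLC1A5 (chr19:47278140-47291851, minus strand) had 104 and 115 FPKM under vehicle and 67.8 and 81.2 FPKM under MGH-CP1. SLC1A5 fell without overlap, with a log2 fold change of -0.55 (standard error 0.09). SLC1A4 (chr2:65215611-65250999, plus strand) fell from 4.70 and 5.27 FPKM to 2.75 and 2.64 FPKM. Its log2 fold change was -0.69 (standard error 0.09).

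SLC1A3, a glutamate and aspartate carrier, was the lowest of the 10 under vehicle. It had 2.60 and 2.67 FPKM there and 2.53 and 2.51 FPKM under MGH-CP1. Although these values do not overlap, the log2 fold change was -0.05 with a standard error of 0.10, smaller than its error.

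The SLC38 carriers, which take up glutamine and other small neutral amino acids together with sodium, moved in opposite directions. SLC38A1 (chr12:46576846-46663800, minus strand) was at 42.6 and 42.0 FPKM under vehicle and fell to 32.0 and 34.7 FPKM, a log2 fold change of -0.34 (standard error 0.06). SLC38A2 (chr12:46751972-46766650, minus strand), whose transcript is known to be induced when amino acids run short, had 84.8 and 80.0 FPKM under vehicle and 125 and 117 FPKM under MGH-CP1. It rose by 46.8% in mean FPKM, with a log2 fold change of 0.55 (standard error 0.06), and both MGH-CP1 libraries lay above both vehicle control libraries. The fragments counted on SLC38A2 were 10550 and 9974 under vehicle and 11024 and 10022 in the shallower MGH-CP1 libraries, so the rise is one relative to the other genes of the library. SLC38A1 and SLC38A2 are neighbours, with 88171 bases and 0 whole genes between them. The ratio of SLC38A2 to SLC38A1 was 1.99 and 1.90 under vehicle and 3.92 and 3.37 under MGH-CP1.

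**Figure D2:**
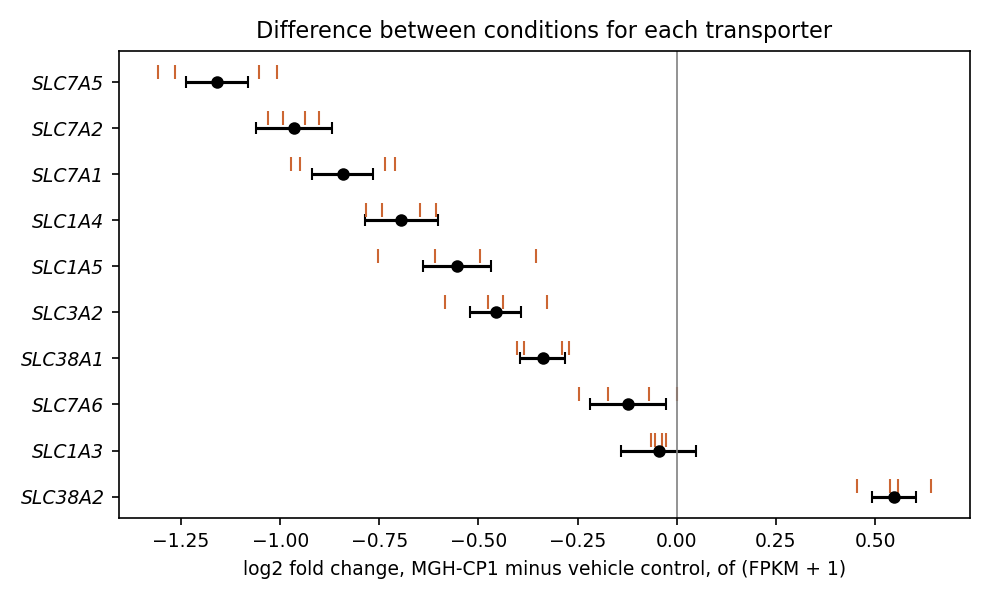
Log2 fold change of (FPKM + 1), MGH-CP1 minus vehicle control, for each transporter, with the standard error from limma as a horizontal bar and the 4 pairs that join a treated with a control library as upright ticks. SLC7A5 lies farthest left on this scale at -1.16, SLC1A3 and SLC7A6 lie near 0 at -0.05 and -0.12, and SLC38A2 lies alone to the right at 0.55.

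All 10 transporters passed the filter of a mean FPKM of at least 1. In the fit across all 12080 genes (limma, adjusted p under 0.05), 7 of the 10 were called lower, 1 higher and 2 neither. Of all genes tested, 23.8% were called lower and 27.1% higher, so a call in either direction was common in this comparison. In 8 of the 10 both MGH-CP1 libraries lay below both vehicle control libraries, which held for 37.4% of all genes tested. In 1 they lay above, which held for 39.8% of all genes. The median log2 fold change of the 10 was -0.51, beside 0.01 over all genes tested. Since the transporters were chosen around SLC7A5, whose fall in this comparison was already known, nothing is read from these counts. The MGH-CP1 libraries differed from each other more than the vehicle control libraries did for SLC7A5, with SDs of 10.5 and 4.08 FPKM. MGH-CP1 replicate 2 was above replicate 1 in 6 of the 7 transporters called lower, and in 66.6% of the 2869 genes called lower. Fits that each dropped 1 library gave log2 fold changes of SLC7A5 between -1.29 and -1.03, and of SLC38A2 between 0.50 and 0.60. In a model for each gene on its own, without variance shared between genes, 0 of the 10 and 13 of all 12080 genes passed the adjusted threshold, while 7 of the 10 and 4947 of the 12080 had an unadjusted p under 0.05, a count from which nothing is read either.

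The order of the levels differed between the conditions. In the vehicle control libraries the order by FPKM was SLC7A5, SLC1A5, SLC3A2, SLC38A2, SLC7A1, SLC38A1, SLC1A4, SLC7A2, SLC7A6 and SLC1A3, with overlapping values for the neighbours SLC7A2 and SLC7A6 alone. After MGH-CP1 it began with SLC38A2, followed by SLC7A5, SLC1A5 and SLC3A2, which overlapped as neighbours. SLC38A1, SLC7A1, SLC7A6, SLC1A4, SLC1A3 and SLC7A2 followed without overlap. SLC38A2 in FPKM was thus 0.464 and 0.424 times SLC7A5 under vehicle and 1.66 and 1.29 times SLC7A5 under MGH-CP1.

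Summed over the 10 genes, the level was 571 and 590 FPKM under vehicle and 401 and 435 FPKM under MGH-CP1. SLC7A5 made up 32.0% and 32.0% of this sum under vehicle and 18.8% and 20.7% under MGH-CP1. The share of SLC38A2 was 14.8% and 13.6% in the former and 31.3% and 26.8% in the latter. Of all fragments on genes, the 10 transporters took 0.259% and 0.263% under vehicle and 0.182% and 0.196% under MGH-CP1. Within families, SLC7A1 exceeded SLC7A2 by 12.1 and 12.2 times under vehicle and 16.1 and 17.3 times under MGH-CP1, in FPKM. For SLC1A5 over SLC1A4 the ratios were 22.1 and 21.8, and 24.7 and 30.7.

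**Figure D3:**
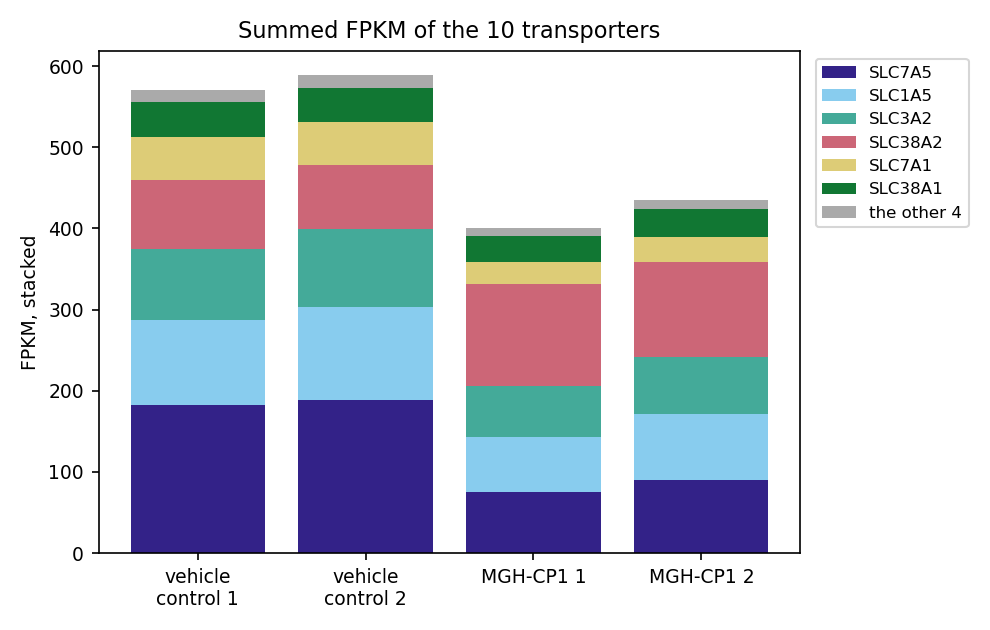
Stacked FPKM of the 10 transporters in each library, with the 4 genes under 6 FPKM drawn together in grey. The stacks reach 571 and 590 FPKM under vehicle and 401 and 435 FPKM under MGH-CP1, with a smaller SLC7A5 segment and a larger SLC38A2 segment in the latter.

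Among 42 other amino acid carriers, 16 passed the filter, and 12 were at 0 in every library. Of the 16, 4 were called lower and 6 higher (limma, adjusted p under 0.05), beside 23.8% and 27.1% of all genes, with a median log2 fold change of 0.17. SLC43A2, a uniporter for leucine and other large neutral amino acids, had the largest change of them. It was at 2.54 ± 0.0890 FPKM (SD, n = 2) under vehicle and 8.08 ± 0.598 FPKM (SD, n = 2) under MGH-CP1, a rise of 1.36 on the log2 scale with a standard error of 0.09 and an adjusted p of 2.73e-05 from limma. Its relative SLC43A1 fell by 0.33 on the log2 scale (adjusted p = 0.00866 from limma). SLC7A11, the cystine and glutamate exchanger and another partner of SLC3A2, fell by 0.42 (adjusted p = 0.00431 from limma). SLC7A7, a further SLC3A2 partner, went from 0.950 to 1.54 FPKM, a log2 fold change of 0.38. SLC7A7 and SLC1A1, at 0.950 and 0.975 FPKM under vehicle, passed the filter of a mean FPKM of 1 only through their higher level under MGH-CP1, so they had to be higher there, and their calls among the 6 support nothing. The carriers SLC36A1, which is coupled to protons, and SLC36A4, of the same family, fell by 0.39 and 0.32. The glutamate carrier SLC1A1 had a log2 fold change of 0.41, and the remaining rises were 0.34 for the taurine carrier SLC6A6, 0.34 for the glycine carrier SLC6A9 and 0.31 for SLC38A10.

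Of 28 genes known to respond to amino acid shortage, which include enzymes of amino acid synthesis and one-carbon metabolism and stress regulators, 25 were tested. Of these, 16 (64.0%) were called lower and 4 (16.0%) higher, beside 23.8% and 27.1% of all genes, and the median log2 fold change was -0.26. PSAT1, an enzyme of serine synthesis, fell most, from 72.3 ± 1.15 FPKM to 35.4 ± 3.88 FPKM (SD, n = 2 each; log2 fold change -1.01, adjusted p = 3.83e-05 from limma). ASNS, asparagine synthetase, went from 42.7 to 26.7 FPKM (log2 fold change -0.66, adjusted p = 0.000320 from limma). JDP2, a bZIP factor, fell by 0.68 (adjusted p = 0.00287 from limma). The largest rises were those of DDIT4, known as an inhibitor of mTORC1 that is also induced by low oxygen, by 0.77 (adjusted p = 8.05e-05 from limma), VLDLR, a lipoprotein receptor, by 0.75 (adjusted p = 8.95e-05 from limma), and the factor CEBPB, by 0.44 (adjusted p = 0.000888 from limma). ATF4 itself, named after its value was seen, had 92.0 ± 6.12 FPKM under vehicle and 93.0 ± 4.39 FPKM under MGH-CP1 (SD, n = 2 each), with a log2 fold change of 0.02 (standard error 0.06, not called). The level of a transcript does not measure ATF4 protein, which is set largely by translation.

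**Figure D4:**
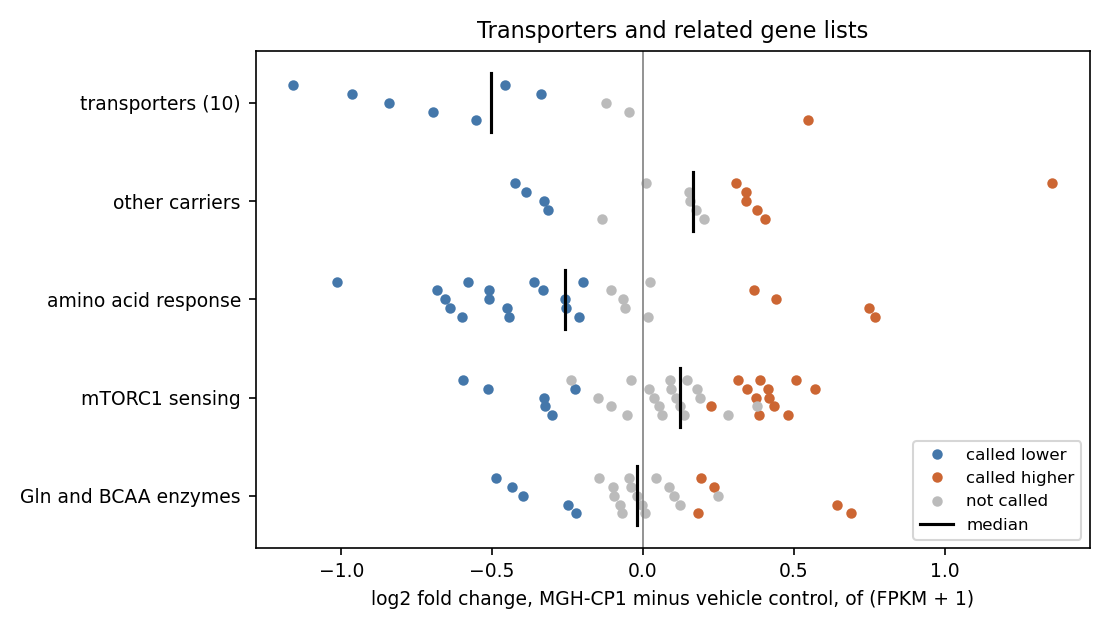
Log2 fold change of (FPKM + 1), MGH-CP1 minus vehicle control, of each tested gene in 5 lists, blue where called lower, orange where called higher and grey where not called, with the list's median as an upright line. The medians are -0.51 for the 10 transporters, 0.17 for the other carriers, -0.26 for amino acid response genes, 0.12 for mTORC1 sensing genes and -0.02 for glutamine and branched-chain amino acid (Gln and BCAA) enzymes.

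The listed genes that sense amino acids, mainly for mTORC1, moved in both directions. Of 39 listed genes 37 were tested, and 6 were called lower, 12 higher and 19 neither, with a median log2 fold change of 0.12. These are 16.2% lower and 32.4% higher, near the 23.8% and 27.1% of all genes. Without the filter on low values 5 of 39 were called higher, beside 2280 of all 24878 genes tested in that fit. MTOR, the kinase itself, fell by 0.51 (adjusted p = 0.000589 from limma). SEH1L, shared by the GATOR complex and the nuclear pore, fell by 0.60 (adjusted p = 0.000321 from limma) and the GATOR subunit NPRL3 by 0.33 (adjusted p = 0.00248 from limma). The Ragulator subunits LAMTOR2 and LAMTOR4, which anchor the Rag GTPases at the lysosome, rose by 0.57 (adjusted p = 0.000607 from limma) and 0.51 (adjusted p = 0.00145 from limma). C7orf60, a sensor of S-adenosylmethionine, rose by 0.48 (adjusted p = 0.00554 from limma). EIF2AK4, the kinase that senses amino acid shortage, was also in this list and is named after its value was seen. It fell by 0.32 (adjusted p = 0.00144 from limma).

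Among the enzymes of glutamine and branched-chain amino acid metabolism, which use what these carriers bring in, 25 of 28 were tested. Of these, 5 were called lower, 5 higher and 15 neither, with a median log2 fold change of -0.02. Both shares lie near the 23.8% lower and 27.1% higher of all genes. BCAT1, which transfers the amino group of leucine, isoleucine and valine, fell by 0.49 (adjusted p = 0.000917 from limma), and the aspartate aminotransferases GOT1 and GOT2 fell by 0.43 and 0.40. AUH, of leucine breakdown, rose by 0.64 (adjusted p = 0.00108 from limma). ALDH6A1, of valine breakdown, rose by 0.24 (adjusted p = 0.0336 from limma). Without the filter on low values, which raises the genes tested to 24878 by adding those with few fragments, 3 of 28 enzymes were called lower and 2 higher. Of all 24878 genes, 1844 were called lower and 2280 higher in that fit.

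The genes with the pattern most like that of SLC7A5 over the 4 libraries were AOX1, CDH4, PRKDC, ENSG00000261061 and CLSPN. Likeness was the Euclidean distance between log2(FPKM + 1) values centred on each gene's mean, which was 0.0455, 0.0515, 0.0629, 0.104 and 0.106 for these genes. AOX1 had 9.03 and 9.50 FPKM under vehicle and 3.33 and 4.17 FPKM under MGH-CP1. PRKDC, the catalytic subunit of the DNA-dependent protein kinase, was at 36.1 and 36.6 FPKM and then 15.0 and 18.0 FPKM. Among the transporters SLC7A2 and SLC7A1 came nearest, at distances of 0.232 and 0.321 and ranks 37 and 90 among all genes tested. SLC3A2, the partner protein's gene, had rank 816. The order of the transporters by this distance is the order of their log2 fold changes. The group was chosen around SLC7A5 with its fall already known, so nothing is read from these ranks.

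The pseudogenes SLC7A5P1 and SLC7A5P2 were at 0 in every library, so no fragment was listed for these copies. Of the coding sequences within a transporter family, SLC1A4 and SLC1A5 were the most alike, with 69.3% of aligned bases identical (GENCODE release 29), so no pair is near-identical. Of the genes that overlap a transporter, RP4-536B24.2 at SLC7A5, CTD-2353F22.1 at SLC1A3 and RP11-474P2.2 at SLC38A2, had at most 4 fragments in a library.

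The libraries held 17577930 to 25508824 fragments on genes, and both vehicle control libraries were deeper than both MGH-CP1 libraries. Mitochondrial transcripts took 0.418% to 0.447% of the fragments under vehicle and 1.53% to 1.57% under MGH-CP1. With library totals taken without them, 7 transporters were again called lower and 1 higher, beside 2687 and 3431 of all 12080 genes. Of 6 genes expected to be high in this line, all lay between 30.2 and 389 FPKM, and 6 genes expected to be absent, among them ESR1, PGR, CDH1 and the leukocyte gene PTPRC, stayed at or below 0.638 FPKM in every library. The summed level of these 6 was 0.403 to 0.508 FPKM under vehicle and 0.751 to 0.769 FPKM under MGH-CP1. CDH1, the highest of them, had 0.363 and 0.289 FPKM under vehicle and 0.638 and 0.572 FPKM under MGH-CP1. ESR1, PGR and MYH11 had lower means under MGH-CP1.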

How the data were processed

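RNA of MDA-MB-231 cells (RNeasy extraction, poly-T selected mRNA, paired-end reads by Novogene) was measured in 4 libraries, grouped by the labels. The authors deposited FPKM for 48162 genes with coordinates and gene length. The submitters' processing notes name STAR, CASAVA 1.8 and hg19; the counting tool, the STAR version and the strand setting are not given in the sources used here. FPKM times length gave whole fragments for 100% of values (tolerance 0.01). Totals were 25455533 and 25508824 under vehicle and 17997221 and 17577930 under MGH-CP1, and they set the precision of low genes.

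The 12080 genes whose FPKM averaged 1 or more over the libraries were fitted as log2(FPKM + 1) with limma 3.58.1 in R 4.3.3 (eBayes with a trend, two-sided, Benjamini-Hochberg adjustment over all genes tested, threshold 0.05). An exact permutation test of 2 libraries against 2 cannot go below p = 0.333, so single genes were not tested that way, and calls rest on variance shared between genes. The fitting script was tested on simulated data with few changed genes and the same dispersion for every gene. These settings differ from the data here, so that test lends no support to the calls. Promoter windows are RefSeq's on GRCh38.p14, for 9 of the 10 genes. Coding sequences came from GENCODE release 29 and were aligned with Biopython 1.88.

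The transporters and the other lists were chosen with earlier results of these data known. The other lists were written from general knowledge, with the transporters left out. The genes named are the 10 transporters, every called other carrier, up to 3 largest rises and 3 largest falls of each other list among called genes whose conditions do not overlap, copies and overlapping genes, and the 5 genes nearest to SLC7A5; others are said to be named after their values were seen. FLCN and BCKDHA occur under 2 identifiers each, of which the one listed first was used; neither is named in the results. Some genes that this rule names are not reported here. PECAM1 was not analysed here. Replicate numbers were not taken to pair libraries, since nothing in the labels ties them and the deviations of same-numbered libraries correlated at 0.0777. Alternatives were a pseudocount of 0.1, no filter, an average FPKM of 5 or more, median-ratio and quantile scaling, totals without mitochondrial genes, a replicate block, no trend, a per-gene model, limma voom on recovered fragments, and leaving out each library.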

Additional observations from a re-analysis of the deposited data

How the results depend on the processing

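The log2 fold change of each transporter kept its sign under every alternative tried, for example -0.53 to -0.38 for SLC3A2, -0.96 to -0.72 for SLC7A1, -1.34 to -0.92 for SLC7A2, -0.90 to -0.63 for SLC1A4, -0.68 to -0.43 for SLC1A5, -0.39 to -0.28 for SLC38A1, -0.22 to -0.03 for SLC7A6 and -0.14 to -0.03 for SLC1A3. SLC7A6 and SLC1A3 were called under none of them. SLC7A2, SLC7A6, SLC1A3 and SLC1A4 were not tested with a mean FPKM of at least 5. Their signs hold for the other alternatives. The count of 7 lower and 1 higher was also found in each fit without a library, with both other scalings, and in limma voom, which called 3272 of all genes lower and 3337 higher. It was 6 lower without the filter on low values, where SLC1A5 missed the threshold. Raising the filter to 5 FPKM left SLC7A2 and SLC1A4 untested, so 5 were called lower and 1 higher among 6 transporters tested. That fit called 2564 genes lower and 2434 higher out of all 8439 tested. Other scalings moved the median log2 fold change of all genes from 0.01 to between -0.03 and 0.03.

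The per-gene model without shared variance called 4 of all genes lower and 9 higher, 0 transporters in either direction, and 0 genes lower and 0 higher in each of the other lists. Unadjusted p-values under 0.05 in that model were found for 4947 genes in all, 7 transporters, 10 other carriers, 14 amino acid response genes, 15 mTORC1 sensing genes and 6 glutamine and branched-chain amino acid enzymes. Without the filter 1844 of all 24878 genes tested were called lower and 2280 higher. In that fit 1 of 30 other carriers was called lower, as were 10 of 28 response genes. Of the mTORC1 sensing genes 5 of 39 were called higher, and of the enzymes 3 of 28 lower and 2 higher. Without the trend in limma 3 enzymes were called higher. Leaving out a library lowered the calls over all genes in both directions, and those among other carriers and enzymes also changed. Counts of these fits are not given, since the lone library is there assumed to vary like the other group. With the replicate number as a block, 3052 genes were called lower and 3466 higher, and 7 transporters lower and 1 higher; 2 pairs are too few to show that the numbers pair the libraries. Depth limits SLC7A2, SLC1A3 and SLC1A4 most, with 184 to 855 fragments per library.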
